A study of Drosophila melanogaster with 11 samples.

Results

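Short internal exon bins were the 1358 stretches of annotated exon, each 10 to 60 bases long and neither the first nor the last of its gene, that held at least 10 read counts in at least 2 of the 11 libraries. An exon bin is a piece of a gene's exons cut wherever the annotated transcripts start, stop or splice differently, so that a read can be assigned to the piece it overlaps. The rule took genes with at least 4 bins (7359 of 14333 genes) and ordered the bins of each gene by position. It found 4509 internal bins of 10 to 60 bases, of which 3151 did not reach the count minimum. The 1358 that did lay in 914 genes and made up a small share of the 75196 bins of the annotation. Widths, positions and counts chose the bins, and no difference between groups did. At the edges of the rule, the 163 bins with 10 counts in exactly 2 libraries had a median total of 59 counts, against 38.5 counts for the 172 bins left out with 10 counts in exactly 1 library. The 55 bins of 60 bases had a median usage of 4.15% of their gene's counts, against 4.88% for the 42 internal bins of 61 bases that passed the same count minimum, and the 24 bins of 10 bases had 4.37%, against 1.97% for 40 bins of 9 bases.

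The libraries came from intestinal stem cells (ISCs) and enteroblasts (EBs), the progenitors that ISC divisions give rise to, sorted from guts of female flies aged 5 days. The groups were SPEN-ISC (3 libraries), WT-ISC (3), SPEN-EB (3) and WT-EB (2, the authors having left out the second library of that group). All flies carried esg-GAL4, tub-GAL80ts and UAS-RFP, which mark ISCs and EBs, and a Notch reporter (NRE-Venus), and SPEN flies also carried UAS-spen RNAi of the KK collection, which WT flies lacked. All were moved from 18 to 29°C for 2 days, which lifts the GAL80ts block, so that the RNAi construct was driven in ISCs and EBs alike in guts pooled before sorting. RFP-positive cells without the reporter were taken as ISCs and cells positive for both as EBs. WT flies were not described as carrying a control insertion of the same collection, so that an effect of *spen* RNAi and one of the inserted construct or of genetic background cannot be told apart. *spen* encodes an RNA-binding protein with RRM and SPOC domains, and the exon data asked whether its loss alters exon usage apart from gene expression.

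Very short exons are a special case for the splicing machinery. An exon recognised across its own length needs room for the factors that bind its 3′ and 5′ splice sites, and exons much shorter than that rely on enhancer sequences in the flanking introns or on recognition across a short intron, the common mode in flies. The best-known class, the microexons of neurons, mostly keeps the reading frame and inserts a few amino acids into proteins of synapses, the cytoskeleton and membrane traffic. A short bin need not be such an exon: it can also be the sliver between a pair of alternative splice sites, or between neighbouring transcription start sites inside a 5′ UTR.

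Most short internal bins were pieces of exons and not exons. Of the 1358 bins, 321 (23.6%) touched no other bin of their gene and are called whole exons here, 490 (36.1%) touched a neighbouring bin on one side, and 547 (40.3%) lay inside a longer exon with a neighbour on both sides. A whole exon in this sense can be the first or last exon of some transcripts, since an intron on each side was not checked. Among the 19967 other internal bins with the same count minimum, 70.5% were whole exons, 22.1% had a neighbour on one side and 7.36% lay inside an exon. The short bins had a median width of 40 bases, against 253 for the other internal bins, and only 392 of them (28.9%) belonged to every transcript of their gene, against 78.1% of the other internal bins. Because transcript structures came from the same annotation as the bin borders, these shares describe the annotation of the bins that were expressed.

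Their place in the transcript differed in the same way. The transcripts were compared with those of the current fly annotation by name and by the lengths of their internal exons, and 1302 bins (95.9%) could be placed. The 5′ UTR held 635 of the 1358 bins (46.8%), against 7.63% of the other internal bins. Coding sequence held 416 (30.6%, against 65.3%), and 88 (6.48%, against 16.3%) spanned the border between a UTR and coding sequence. Another 47 lay in a 3′ UTR, 38 in non-coding transcripts, and 78 lay in different parts in different transcripts. By chromosome arm, 218 bins lay on 2L, 314 on 2R, 237 on 3L, 301 on 3R, 213 on X, 41 on the small chromosome 4 and 34 on other scaffolds.

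**Figure D1:**
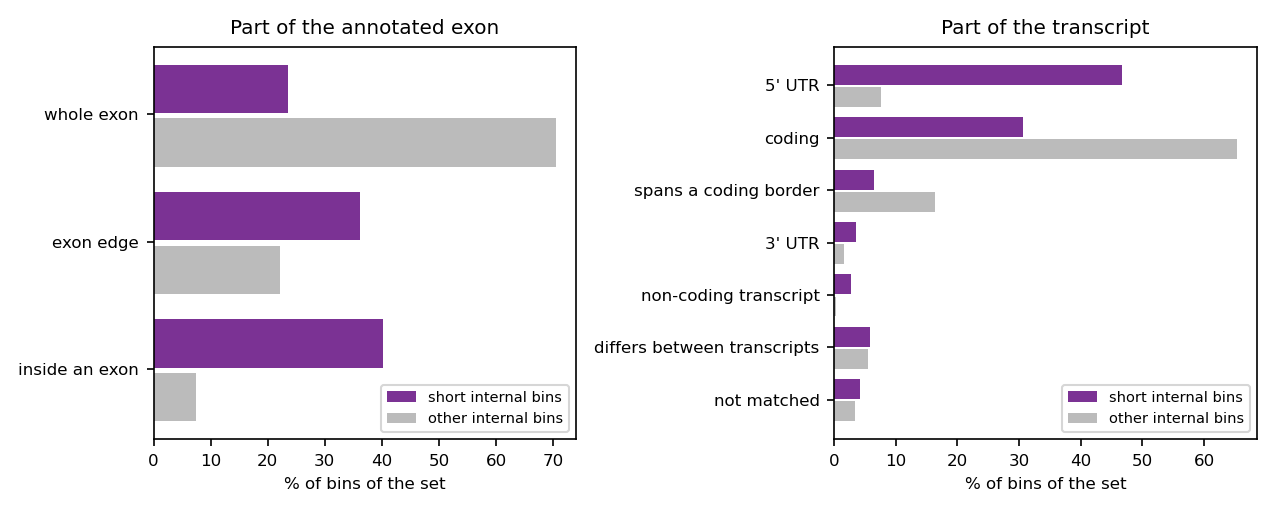
Share of bins (horizontal axis, % of each set) by the part of the annotated exon (left) and the part of the transcript (right) for the 1358 short internal bins and the 19967 other internal bins with the same count minimum. Bins inside an exon made up 40.3% of the short bins and 7.36% of the others, and bins in the 5′ UTR 46.8% of the short bins and 7.63% of the others.

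Short whole exons that were coding in every matched transcript numbered 213, and 103 of them (48.4%) had a width that is a multiple of 3, which keeps the reading frame when the exon is skipped. The share was larger among optional exons. Of the 56 coding whole exons present in only some transcripts of their gene, 43 (76.8%) were multiples of 3, whereas 60 of the 157 present in all transcripts (38.2%) were. Among the longer internal exons the figures were 388 of 896 (43.3%) for exons in some transcripts and 3912 of 10811 (36.2%) for exons in all. All 12 optional coding exons of 27 bases or less were multiples of 3. These are counts of annotated exons with reads, with no test.

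The 12 shortest optional coding exons, named after their values were seen, held between 0 and 146 counts per library. *msn* E017 (21 bases), in the gene of the Ste20-family kinase Misshapen, held 10, 17 and 46 counts in SPEN-ISC libraries, against 0, 13 and 11 in WT-ISC libraries, and 50, 7 and 15 counts in SPEN-EB libraries, against 5 and 1 in WT-EB libraries. This was 0 to 1.84% of the counts of *msn*, with no group apart from the others. *sowah* E002 (27 bases) was used more evenly, at 3.80 ± 0.593% of gene counts in SPEN-ISC libraries, against 4.52 ± 0.514% in WT-ISC libraries (SD, n = 3 each), and at 3.89 ± 0.713% in SPEN-EB (n = 3), against 4.64 ± 0.276% in WT-EB libraries (n = 2). *p53* E006 (27 bases), in the gene of the fly p53 transcription factor, had between 12 and 73 counts in each of the 11 libraries. *Snx6* E003 (18 bases), in the gene of a sorting nexin of endosomes, had 0 to 20 counts, and *mew* E008 (27 bases), in the gene of the integrin subunit alphaPS1, had 0 to 49. *Flo-1* E005 (12 bases), in the gene of the membrane scaffold protein flotillin, had 18, 4 and 5 counts in SPEN-ISC libraries, against 2, 4 and 2 in WT-ISC libraries, and 9, 1 and 12 in SPEN-EB libraries, against 7 and 0 in WT-EB libraries. Others were *sw* E008 (21 bases; cytoplasmic dynein intermediate chain), *Mitf* E008 (21 bases; a transcription factor of lysosomal genes), *unc-104* E006 (27 bases; a kinesin that carries synaptic vesicle precursors), *Ac76E* E019 (15 bases; an adenylyl cyclase) and *CG7518* E009 (27 bases). The 56 optional coding exons were used at a median of 1.76% of gene counts (0.0521 to 13.8%), and 16 of them had at least 10 counts in all 11 libraries. None passed the test in SPEN-ISC against WT-ISC (35 tested in limma, 3 with an unadjusted p under 0.05) or in SPEN-EB against WT-EB (26 tested, 0 with an unadjusted p under 0.05). Among all bins, limma called 10 of 28992 and 17 of 26479 in these comparisons, and 1126 and 1489 had an unadjusted p under 0.05.

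Usage, the share of a gene's bin counts that fell in a bin, is the measure compared below. A read was counted in each bin it overlapped, so a short bin shares most of its reads with its neighbours and is not an independent sample of the transcript. Each library held 28206027 to 31991452 bin counts, of which the short internal bins took 5.97 to 7.97%, and 702 (WT-EB replicate 1) to 1248 (SPEN-ISC replicate 3) of them had at least 10 counts. Only 580 reached 10 counts in all 11 libraries. The targeted gene was not lower in the libraries labelled SPEN. *spen* E014 held 393 to 2160 counts in SPEN libraries, against 6 to 101 in WT libraries, and the rest of *spen* held 87 to 509 counts in SPEN and 54 to 222 in WT libraries. The study attributed this rise to the expressed double-stranded RNA, which is aimed at this exon. It reported reads in both orientations there with the RNAi and not in WT. In the counts used here, reads from the gene and from the RNAi construct could not be told apart. The marker genes of EBs (5 genes, E(spl) members and *klu*) summed to 3162 to 5099 FPKM in SPEN-ISC and 1162 to 1703 in WT-ISC libraries, against 2211 to 2868 in SPEN-EB and 1046 to 1075 in WT-EB libraries, so they were not higher in the libraries labelled EB. Those of ISCs (Dl, *spdo* and *esg*) summed to 9.89 to 98.2, 6.77 to 111, 6.72 to 35.6 and 4.77 to 8.91 FPKM in the same order. Enteroendocrine markers (8 of 9 listed were found) reached 148 to 2954 FPKM in SPEN-ISC and 1387 to 2533 in WT-ISC libraries, against 7.14 to 15.7 in SPEN-EB and 17.6 to 24.7 in WT-EB libraries. Enterocyte markers summed to 3349 to 3457 FPKM in SPEN-EB libraries, against 311 to 385 in WT-EB libraries, and to 2330 to 6341 in SPEN-ISC, against 1874 to 3700 in WT-ISC libraries, and visceral muscle markers to 0.400 to 9.76 FPKM in all. The part of cell mixture in any difference between groups given below was not tested.

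The median usage over the 1358 bins was close in the 4 groups. It averaged 3.45 ± 0.0400% in SPEN-ISC and 3.39 ± 0.0270% in WT-ISC libraries (SD, n = 3 each), and 3.42 ± 0.270% in SPEN-EB (n = 3) and 3.38 ± 0.00480% in WT-EB libraries (n = 2). The lowest and the highest library were both SPEN-EB, replicate 3 with 3.13% and replicate 1 with 3.67%. These libraries also had the highest and the lowest ratio of 3′ to 5′ coverage of all (log2 of -0.02 and -0.43), and the part of coverage in their usage was not tested. Across bins the mean usage ran from 0.292% (5th percentile) through 3.52% (median) to 17.9% (95th percentile), against a median of 9.77% for the longer internal bins. Whole exons present in every transcript had median usages of 5.50% in SPEN-ISC, 5.25% in WT-ISC, 5.26% in SPEN-EB and 4.94% in WT-EB, and whole exons in some transcripts 1.94, 1.47, 1.71 and 1.53% in the same order. Bins of 10 to 20 bases (253) had a median usage of 3.14% and bins of 51 to 60 bases (415) of 4.02%.

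Replicates of short bins spread little more than those of long ones. Among bins with at least 10 counts in each library of a group, the median coefficient of variation of usage was 12.6% in SPEN-ISC (786 bins), 11.8% in WT-ISC (732), 12.3% in SPEN-EB (740) and 8.19% in WT-EB (643, from 2 libraries). The longer internal bins had 11.9, 10.7, 12.1 and 7.92% in the same order.

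Cytoplasmic ribosomal protein genes supplied most of the counts. Of the 92 such genes, 41 held 75 short internal bins, and these took 92.3% of all counts in the 1358 bins (88.3 to 95.6% per library). Of the 75, 47 lay in a 5′ UTR and 15 spanned the start or the end of the coding sequence. *RpL23* E002 (50 bases, chromosome arm 2R, 18742003 to 18742052), a whole exon in the single transcript of the gene of a large-subunit protein, carried the most counts, between 76201 and 169302 per library. Its usage was 30.003 ± 0.0653% in SPEN-ISC and 30.1 ± 0.308% in WT-ISC libraries (SD, n = 3 each), and 29.7 ± 0.389% in SPEN-EB (n = 3) and 30.03 ± 0.0377% in WT-EB libraries (n = 2). At this depth the exon differed by a log2 ratio of -0.01 ± 0.02 (SE) in ISCs and -0.02 ± 0.06 in EBs (limma, adjusted p = 1.00 and 0.983). Other ribosomal protein bins were rarely used. *RpS3A* E002 (50 bases, 3′ UTR, in 1 of 3 transcripts) held 15 to 107 counts per library, 0.00891 to 0.0487% of the counts of the gene, and *RpL31* E002 (49 bases, 5′ UTR, in 1 of 3 transcripts) held 77 to 203 counts, 0.0421 to 0.131%.

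The first comparison asked which short bins were used differently in ISCs with *spen* RNAi. Of 1057 short bins tested in SPEN-ISC against WT-ISC, 1 was called (limma on the ratio of bin to remaining gene counts, adjusted p under 0.05 over all 28992 bins tested), beside 0.0345% of all bins, and 62 had an unadjusted p under 0.05, against 1126 of all bins. The median log2 ratio of the short bins was -0.01, and that of all bins 0.00.

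The bin called was *CG30283* E003 (43 bases, chromosome arm 2R, 17427753 to 17427795, minus strand), a whole coding exon of a gene with 4 bins and 1 transcript. It held 567, 273 and 484 counts in SPEN-ISC libraries, against 301, 262 and 312 in WT-ISC libraries. As a share of the gene this was 9.87, 10.1 and 10.5% in SPEN-ISC, against 6.99, 6.91 and 6.76% in WT-ISC, without overlap between the groups. The usage rose in SPEN-ISC by a log2 ratio of 0.61 ± 0.07 (SE; limma, adjusted p = 0.0293). Its host gene was at a similar level, 183 ± 61.3 FPKM in SPEN-ISC and 191 ± 19.4 FPKM in WT-ISC libraries (SD, n = 3 each). Of the other exons of the gene, E001 (413 bases) took 37.7% in SPEN-ISC and 41.7% in WT-ISC, E004 (226 bases) 30.1 and 31.2%, and E002 (140 bases), the neighbour of E003, 22.1 and 20.3%. The call was lost when SPEN-ISC replicate 1 or 2 or any WT-ISC library was left out (limma adjusted p of 0.0559 to 0.206, log2 ratio of 0.59 to 0.64) and held without SPEN-ISC replicate 3 (adjusted p = 0.0406).

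The short bins with the next smallest p were both lower in SPEN-ISC libraries and missed the threshold. *CG11455* E010 (21 bases, 2L, 155546 to 155566), in the 5′ UTR of 7 of the 11 transcripts of the gene of ND-15, a subunit of mitochondrial complex I, held 5.39, 5.43 and 5.42% of gene counts in SPEN-ISC, against 7.16, 7.32 and 8.002% in WT-ISC libraries. The log2 ratio was -0.50 ± 0.07 (SE; limma, adjusted p = 0.0624). The gene holds 4 further short bins, E006 to E009, which touch each other and E010 and share reads with it. They had log2 ratios of 0.09, -0.12, -0.04 and -0.21, so E010, at the 3′ end of the stretch, differed the most. *RFeSP* E003 (51 bases, 2L, 1612989 to 1613039) is described with the EB comparison, where it was called.

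In EBs, 2 of the 956 short bins tested were called lower in SPEN-EB than in WT-EB, beside 0.0642% of all 26479 bins in either direction, and 71 had an unadjusted p under 0.05 (limma), against 1489 of all bins. The median log2 ratio was -0.06 for the short bins, against -0.01 for all bins. This median depended on the setting. It was -0.0015, against -0.0059 for all bins, with the 3′ to 5′ coverage as a covariate. With the neighbouring bins as the denominator it was -0.01, against -0.0018, and with an offset of 2 it was -0.09, against -0.03. *RFeSP* encodes the Rieske iron-sulfur protein, the electron-transferring subunit of mitochondrial complex III. *RFeSP* E003 lies inside an exon of 1 of its 3 transcripts, between E002 and, after the 4 bases of E004, E005, and its transcript could not be matched to the current annotation. It had 1, 1 and 1 counts in SPEN-EB libraries, against 70 and 86 in WT-EB libraries. In ISCs it had 1, 3 and 0 counts in SPEN libraries, against 85, 63 and 61 in WT libraries. The WT libraries used it at close to 1% of gene counts and the SPEN libraries hardly at all, with no overlap in either cell type. The usage was 0.0176 ± 0.00601% in SPEN-EB (SD, n = 3), against 0.968 ± 0.0755% in WT-EB (n = 2), and 0.0209 ± 0.0265% in SPEN-ISC, against 0.954 ± 0.0436% in WT-ISC (n = 3 each). Pooled over libraries, the usage in SPEN-EB was 0.0169 of that in WT-EB (95% interval 0.00345 to 0.0503, exact and for counting error only), and that in SPEN-ISC was 0.0222 of that in WT-ISC (0.00599 to 0.0577). The fitted log2 ratio, which at such counts depends on the offset of 0.5, was -5.28 ± 0.66 in EBs (SE; limma, adjusted p = 0.0209) and -4.97 ± 0.68 in ISCs (adjusted p = 0.0654).

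The bins around *RFeSP* E003 set it apart. E004, too short for the rule, had 0, 3 and 0 counts in SPEN-EB, against 48 and 56 in WT-EB, and 1, 3 and 0 in SPEN-ISC, against 54, 41 and 50 in WT-ISC. The flanking bins were used at like levels in all groups: E002 (293 bases) at 18.3% in SPEN-ISC, 17.3% in WT-ISC, 18.2% in SPEN-EB and 17.1% in WT-EB, and E005 (380 bases) at 46.6, 45.7, 46.5 and 45.1% in the same order. *RFeSP* as a gene had 233 ± 61.4 FPKM in SPEN-EB (SD, n = 3), against 302 ± 25.1 FPKM in WT-EB (n = 2), and 242 ± 69.3 in SPEN-ISC, against 283 ± 51.5 in WT-ISC (n = 3 each). Leaving out SPEN-EB replicate 2 or 3 or either WT-EB library ended the call in EBs (limma adjusted p of 0.0616 to 0.113) with the log2 ratio between -5.09 and -5.35, while the call held without SPEN-EB replicate 1 (adjusted p = 0.00121).

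The second bin called in EBs lay in a ribosomal protein gene. *RpS7* E003 (53 bases, 3R, 26033762 to 26033814) sits at the edge of an exon of 1 of 4 transcripts of the gene of a small-subunit protein. It held 374, 505 and 593 counts in SPEN-EB, against 992 and 930 in WT-EB libraries. Its usage was 0.156, 0.143 and 0.180% in SPEN-EB, against 0.267 and 0.272% in WT-EB, a log2 ratio of -0.75 ± 0.11 (SE; limma, adjusted p = 0.0432). In ISCs the groups overlapped, with 0.289, 0.115 and 0.124% in SPEN-ISC, against 0.235, 0.135 and 0.147% in WT-ISC, where replicate 1 of each group was high (log2 ratio 0.09 ± 0.49, adjusted p = 1.00). The difference between the cell types was not called either (log2 difference -0.82 ± 0.54, adjusted p = 1.00). Without SPEN-EB replicate 2 or either WT-EB library the EB call was lost (limma adjusted p of 0.153 to 0.567), and without SPEN-EB replicate 1 or 3 it held (0.00064 and 0.00319). Of the other short bins of *RpS7*, E007 (26 bases, 5′ UTR, in all 4 transcripts) was used at 17.3% in SPEN-ISC, 17.6% in WT-ISC, 16.8% in SPEN-EB and 17.3% in WT-EB, and the 14-base E002 held 1 to 14 counts per library.

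*RpL12* E002 (59 bases, 2R, 19947977 to 19948035, 5′ UTR, in 1 of 3 transcripts), in the gene of a large-subunit protein, had the next smallest p in EBs and was not called. It held 0.152, 0.165 and 0.135% of gene counts in SPEN-EB, against 0.0998 and 0.0789% in WT-EB libraries, a log2 ratio of 0.76 ± 0.15 (SE; limma, adjusted p = 0.199). In ISCs it held 0.120, 0.172 and 0.145% in SPEN, against 0.133, 0.125 and 0.142% in WT libraries, which overlapped. The WT-EB libraries were thus the ones that stood apart from the rest.

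**Figure D2:**
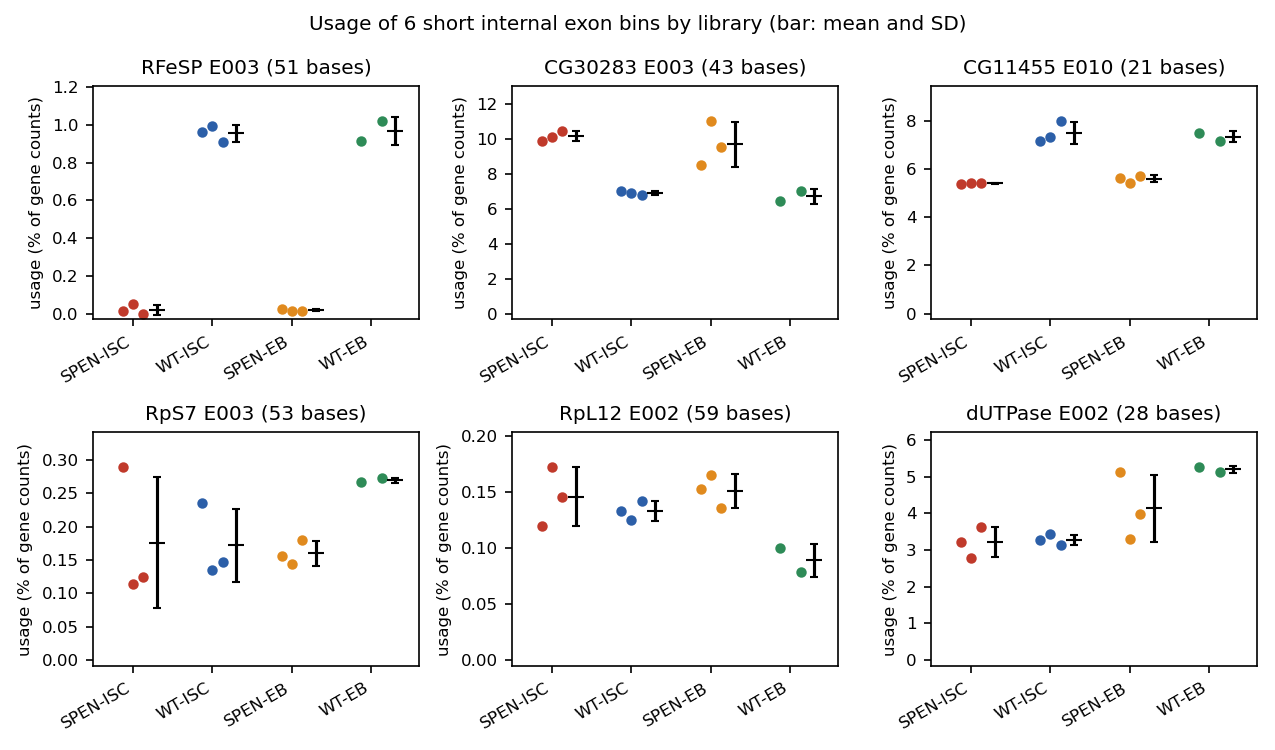
Usage (vertical axis, % of gene counts) of 6 short internal bins in each of the 11 libraries (points), with the mean and SD of each group (bars). *RFeSP* E003 was at 0.0209 and 0.0176% in the SPEN groups, against 0.954 and 0.968% in the WT groups, while *RpL12* E002 was lower in both WT-EB libraries than in any other library.

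Apart from the calls, the libraries of SPEN and WT were compared for overlap. In ISCs 131 of 1057 short bins (12.4%) had no overlap in usage, 63 higher and 68 lower in SPEN-ISC, beside 8.91% of all bins. In EBs, with 2 libraries on the WT side, 279 of 956 (29.2%) had none, 120 higher and 159 lower in SPEN-EB, beside 24.6% of all bins. In both cell types and in the same direction, 36 of 898 bins (4.01%) had none, 14 higher and 22 lower, beside 2.31% of all 25678 bins tested in both. In opposite directions it was 6 bins (0.668%), beside 0.545%.

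Of the 36 bins without overlap in both cell types (14 higher and 22 lower in SPEN), only *CG30283* E003 and *RFeSP* E003 were called in either. The bins described next were named after their values were seen and were all lower in SPEN. *CG30283* E003 and *Uhg1* E010, described further below, were among the higher ones. *crc* E004 (27 bases, coding, in 2 of 4 transcripts), in the gene of the fly ATF4 homologue, a transcription factor of the stress response, held 3.63, 3.64 and 3.59% in SPEN-ISC, against 3.99, 4.07 and 4.03% in WT-ISC, and 3.58, 3.50 and 3.25% in SPEN-EB, against 4.27 and 3.94% in WT-EB. The log2 ratios were -0.16 ± 0.04 and -0.25 ± 0.10 (SE; limma, adjusted p = 0.804 and 0.827). *CG33170* E003 (54 bases, whole coding exon in both transcripts) was used at 33.0% in SPEN-ISC, against 34.6% in WT-ISC, and at 31.2% in SPEN-EB, against 35.3% in WT-EB. *CG14903* E003 (31 bases, 5′ UTR) was used at 10.2 ± 2.84%, against 14.7 ± 0.349% in ISCs, and at 10.6 ± 0.138%, against 14.8 ± 0.765% in EBs (SPEN against WT; SD, n = 3, or 2 for WT-EB). *GS* E008 (43 bases, whole exon in 5 of 6 transcripts), in the gene of glutathione synthetase, was used at 4.37%, against 6.04% in ISCs, and at 4.69%, against 5.44% in EBs (SPEN against WT). *Prosalpha1* E005 (28 bases, 5′ UTR), in the gene of a proteasome core subunit, was at 1.83%, against 2.70% in ISCs, and at 2.18%, against 3.39% in EBs. *eRF1* E002 and E003, neighbours of 23 and 13 bases in the 5′ UTR of the gene of the translation release factor, were both lower in the SPEN libraries of both cell types, with log2 ratios of -0.25 to -0.47. *cl* E003 and E004, 51 and 15 bases in the 5′ UTR of *clot*, a gene of eye pigment synthesis, were lower as well (-0.30 to -0.55), and each of these pairs shares reads.

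**Figure D3:**
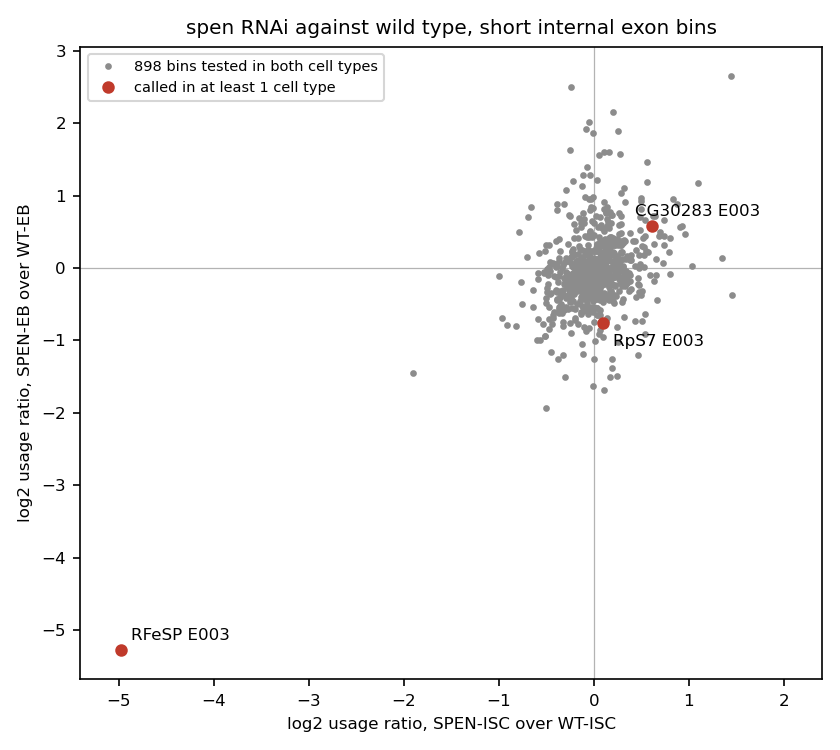
Log2 usage ratio of SPEN over WT in ISCs (horizontal axis) and in EBs (vertical axis) for the 898 short internal bins tested in both cell types, with the 3 bins called in at least 1 cell type in red. *RFeSP* E003 lay at -4.97 and -5.28, far from the other bins, *CG30283* E003 at 0.61 and 0.58, and *RpS7* E003 at 0.09 and -0.75.

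*CG30283* E003 and *CG11455* E010 were among the 36 bins without overlap in both cell types. *CG30283* E003 held 8.47, 11.02 and 9.52% in SPEN-EB, against 6.41 and 7.003% in WT-EB, a log2 ratio of 0.58 ± 0.15 (SE; limma, adjusted p = 0.457) beside 0.61 ± 0.07 in ISCs. In EBs the gene itself also differed in level, with 58.0 ± 2.34 FPKM in SPEN-EB (SD, n = 3), against 143 ± 38.5 FPKM in WT-EB (n = 2). *CG11455* E010 held 5.63, 5.44 and 5.71% in SPEN-EB, against 7.49 and 7.18% in WT-EB, a log2 ratio of -0.42 ± 0.09 (adjusted p = 0.331). Neither SPEN group overlapped with either WT group at this bin.

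*Uhg1*, a non-coding gene whose introns hold snoRNAs, had the most short internal bins of any gene, 10 of its 18 bins, all of them whole exons in both transcripts. They are repeated short exons of the same transcripts, and longer bins of the gene differed too. E001 and E002 were lower, with means of 8.40 and 12.9% in SPEN-ISC, against 11.6 and 17.6% in WT-ISC. In EBs they held 9.02 and 13.7% in SPEN, against 12.1 and 17.9% in WT libraries. E005 and E007 were higher, with 8.91 and 6.73% in SPEN-ISC, against 7.31 and 5.49% in WT-ISC. In EBs these held 8.30 and 6.51% in SPEN, against 5.89 and 5.34% in WT libraries. E006 (52 bases) held 5.80, 7.58 and 6.24% of gene counts in SPEN-ISC, against 4.47, 4.14 and 4.06% in WT-ISC, E010 (46 bases) 4.06, 5.45 and 5.44%, against 2.76, 3.47 and 3.10%, and E011 (54 bases) 5.39, 5.63 and 5.49%, against 2.37, 3.25 and 3.49%. These 3 exons were higher in every SPEN-ISC library, with log2 ratios of 0.70 ± 0.17, 0.74 ± 0.19 and 0.80 ± 0.17 (SE; limma, adjusted p = 0.623, 0.652 and 0.432). E004 (40 bases) went the other way, with 5.72, 6.31 and 5.03% in SPEN-ISC, against 6.57, 6.95 and 7.61% in WT-ISC (-0.40 ± 0.14, adjusted p = 1.00). In EBs E010 held 5.16, 3.85 and 5.11% in SPEN libraries, against 3.35 and 3.02% in WT libraries, and E004 6.13, 6.28 and 5.11%, against 6.71 and 7.43%, again without overlap. E006 held 5.536, 7.71 and 4.32% in SPEN-EB, against 1.52 and 4.57% in WT-EB, and E011 5.62, 4.36 and 6.28%, against 4.57 and 4.02%, so these exons overlapped between the groups. The other 6 short exons of *Uhg1* had log2 ratios of mixed sign, from -0.37 to 0.31 in ISCs and from -0.23 to 0.35 in EBs. The counts behind these values were low, 11 to 279 per library for E004 and E010, and the gene as a whole ran from 18.7 to 62.2 FPKM in SPEN-ISC, against 12.5 to 29.3 FPKM in WT-ISC, and from 18.9 to 75.8 FPKM in SPEN-EB, against 5.14 to 20.9 FPKM in WT-EB. In *Uhg4*, another snoRNA host gene with more counts, the whole exons E002, E004 and E005 were used at 22.2, 13.4 and 11.7% in SPEN-ISC, against 22.0, 13.2 and 11.8% in WT-ISC, and at 22.5, 12.5 and 11.5% in SPEN-EB, against 22.8, 13.1 and 10.96% in WT-EB.

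**Figure D4:**
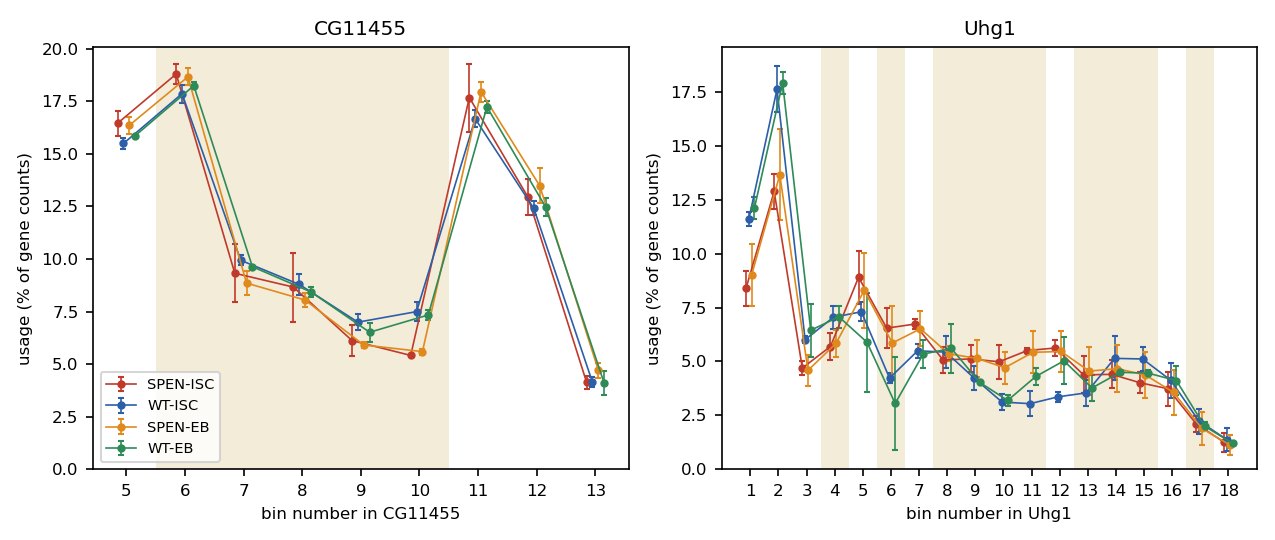
Usage (vertical axis, % of gene counts) by bin number (horizontal axis) in *CG11455* (bins 5 to 13) and *Uhg1* (bins 1 to 18), as group mean and SD (3 libraries each for SPEN-ISC, WT-ISC and SPEN-EB, 2 for WT-EB), with short internal bins shaded. In *CG11455* both SPEN groups sat below both WT groups at bin 10 (5.41 and 5.59% against 7.49 and 7.34%). In *Uhg1* the means of both SPEN groups were above those of both WT groups at E005 to E007 and E009 to E013. They were below them at E001 to E004, E008, E015 and E016.

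By their labels, WT-ISC and WT-EB differ in the sorted cell type alone. Of 988 short bins tested in WT-ISC against WT-EB, 1 was called lower in WT-ISC (limma), beside 0.0217% of all 27616 bins, and 69 had an unadjusted p under 0.05, against 1440 of all bins. The median log2 ratio was -0.02, against -0.0024 for all bins. The bin was *dUTPase* E002 (28 bases, 2L, 11011314 to 11011341), in the 5′ UTR of 3 of 4 transcripts of the gene of the enzyme that clears dUTP before DNA synthesis. It held 515, 319 and 322 counts in WT-ISC, against 199 and 233 in WT-EB libraries. Its usage was 3.27, 3.43 and 3.15% in WT-ISC, against 5.26 and 5.14% in WT-EB, without overlap, a log2 ratio of -0.69 ± 0.09 (SE; limma, adjusted p = 0.0351). The gene itself was higher in WT-ISC, with 353 ± 103 FPKM (SD, n = 3), against 118 ± 18.8 FPKM in WT-EB (n = 2). The call was lost without WT-ISC replicate 3 (limma adjusted p = 0.241) and without either WT-EB library (0.423 and 0.441), and held without WT-ISC replicate 1 or 2 (0.00298 and 0.0430). With the neighbouring bins as the denominator the log2 ratio was -0.35 (limma, adjusted p = 0.333). The ratio of 3′ to 5′ coverage also separated these groups, with a log2 of -0.31, -0.32 and -0.32 in WT-ISC, against -0.42 and -0.38 in WT-EB. With this coverage as a covariate the log2 ratio of E002 was -0.67 and limma did not call it. The part of coverage in this bin and its neighbours was not tested.

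The short bins of *dUTPase* form a run of 5, all but E005 placed in the 5′ UTR (the transcript of E005 could not be matched), each touching the next and sharing its reads, and the sign of the ratio turned along the run. From the upstream end, E002 had a log2 ratio of -0.69, E003 (38 bases) of -0.35, E004 (39 bases) of 0.08, E005 (35 bases) of 0.08 and E006 (18 bases) of 0.37 in WT-ISC against WT-EB. E003 and E006 both had a limma adjusted p of 0.161. With *spen* RNAi E002 was used at 3.23, 2.79 and 3.62% in SPEN-ISC, against 5.12, 3.31 and 3.99% in SPEN-EB, with overlap, a log2 ratio of -0.36 ± 0.16 (adjusted p = 1.00). The test of that difference between cell types with and without RNAi gave -0.33 ± 0.20 (SPEN minus WT change in EBs less that in ISCs; limma, adjusted p = 1.00).

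Ribosomal protein bins were near the threshold in the same contrast. *RpL15* E005 (54 bases, 5′ UTR, in 2 of 8 transcripts) held 0.0983, 0.108 and 0.106% in WT-ISC, against 0.0673 and 0.0682% in WT-EB, a log2 ratio of 0.61 ± 0.09 (SE; limma, adjusted p = 0.0649), but of 0.00029 with the neighbouring bins as the denominator. *RpL13* E002 (29 bases, 5′ UTR, in all 3 transcripts) held 14.9, 13.6 and 13.9% in WT-ISC, against 10.4 and 9.09% in WT-EB, and 13.6, 14.9 and 15.7% in SPEN-ISC, against 12.8, 11.3 and 12.8% in SPEN-EB (log2 ratios 0.61 and 0.29, adjusted p = 0.245 and 1.00). Both bins were higher in every ISC library than in every EB library of their genotype. *CDase* E002 (56 bases, 5′ UTR), in the gene of a ceramidase, went the other way, with 0.743, 1.20 and 1.125% in WT-ISC, against 2.85 and 2.85% in WT-EB (log2 ratio -1.36 ± 0.26, adjusted p = 0.201). No overlap was seen for 282 of the 988 bins (28.5%), 142 higher and 140 lower in WT-ISC, beside 22.7% of all bins.

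With *spen* RNAi in both cell types, 0 of 1028 short bins were called in SPEN-ISC against SPEN-EB by limma, and 0 by edgeR, DESeq2 or diffSplice, beside 0.00354% of all bins in limma, and 41 had an unadjusted p under 0.05, against 682 of all 28265 bins. The median log2 ratio was 0.02, against 0.0030 for all bins. The smallest p was that of *Mmp1* E013 (19 bases, 5′ UTR, in 3 of 10 transcripts), in the gene of a matrix metalloproteinase, with 6, 3 and 14 counts in SPEN-ISC, against 87, 8 and 29 in SPEN-EB libraries. Its usage was 2.57 ± 0.847% in SPEN-ISC, against 8.60 ± 2.72% in SPEN-EB (SD, n = 3 each), a log2 ratio of -1.84 ± 0.40 (SE; limma, adjusted p = 0.871). *cl* E004 held 8.41, 7.23 and 8.86% in SPEN-ISC, against 6.84, 6.11 and 5.23% in SPEN-EB, and its neighbour E003 7.09, 6.06 and 7.78%, against 5.74, 5.09 and 4.43% (log2 ratios 0.49 and 0.51). No overlap was seen for 93 bins (9.05%), 64 higher and 29 lower in SPEN-ISC, beside 6.84% of all bins.

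The change with *spen* RNAi was not found to differ between cell types at any short bin. In the test over all 11 libraries 0 of 1351 bins were called by limma, edgeR, DESeq2 or diffSplice, beside 0% of all bins in limma, and 32 had an unadjusted p under 0.05, against 865 of all 34126 bins. The median log2 difference was -0.04, against 0.00060 for all bins. The smallest p belonged to *Moca-cyp* E005 (30 bases), in the gene of a cyclophilin, with 2.54, 4.48 and 3.93% in SPEN-ISC, against 0.877, 2.96 and 2.23% in WT-ISC, and 3.28, 2.37 and 2.36% in SPEN-EB, against 4.44 and 7.26% in WT-EB (log2 difference -1.69 ± 0.55). *RpL12* E002 (0.63 ± 0.21) and E003 of the gene of the mitochondrial prohibitin Phb2 (23 bases, 5′ UTR, -0.43 ± 0.14) followed, each with a limma adjusted p of 1.00.

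By the function of the host gene, only the list of cytoplasmic ribosomal proteins held a call in these comparisons, *RpS7* E003. In ISCs 0 of its 74 tested bins were called by limma and 11 had an unadjusted p under 0.05 (median log2 ratio -0.02), beside 10 and 1126 of all 28992 bins. In EBs 1 of 74 was called lower and 14 had an unadjusted p under 0.05 (median -0.05), beside 17 and 1489 of all 26479 bins. In WT-ISC against WT-EB, 0 of 74 were called and 15 had an unadjusted p under 0.05, beside 6 and 1440 of all 27616 bins. The bins of this list held 92.3% of the counts of the short bins, and the part of depth in these numbers was not tested. Mitochondrial ribosomal protein genes held 11 short bins in 7 genes, with *mRpS16* E003 (31 bases, 5′ UTR) the most abundant at 21.8 ± 0.701% in SPEN-ISC and 22.6 ± 0.343% in WT-ISC (SD, n = 3 each), and 21.4 ± 1.41% in SPEN-EB (n = 3) and 23.4 ± 0.424% in WT-EB (n = 2). RNA-binding and splicing factors held 23 bins in 14 genes, none called by limma and 0 of 18 with an unadjusted p under 0.05 in ISCs. The most abundant was *B52* E002 (51 bases, 5′ UTR), in the gene of an SR protein, at 10.3, 10.2, 10.5 and 11.6% in SPEN-ISC, WT-ISC, SPEN-EB and WT-EB. The whole exon *sqd* E011 (41 bases), in the gene of an hnRNP protein, held 4 to 59 counts per library.

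In the other gene lists, which include those for which short exons are best known, few bins reached the count minimum and none of those tested was called by limma. In the order of the lists below, 8, 13, 8, 6, 9 and 0 bins were tested in SPEN-ISC against WT-ISC. In SPEN-EB against WT-EB it was 7, 9, 8, 5, 7 and 0. Actin cytoskeleton and muscle genes held 13 bins in 10 genes. *Mlc-c* E003 (28 bases, X, 5516285 to 5516312), a coding whole exon in 1 of the 2 transcripts of the gene of the myosin essential light chain, was the optional short exon with the most counts, 1205 to 2880 per library. Its usage was 13.1 ± 0.467% in SPEN-ISC and 12.1 ± 0.760% in WT-ISC (SD, n = 3 each), and 13.1 ± 0.841% in SPEN-EB (n = 3) and 13.2 ± 0.112% in WT-EB (n = 2), with an unadjusted p of 0.0467 in ISCs (log2 ratio 0.13 ± 0.06, limma adjusted p = 1.00). Membrane traffic genes held 16 bins in 9 genes. *Rab1* E003 (48 bases), a whole exon of the gene of the small GTPase of transport from the endoplasmic reticulum to the Golgi, was used at 11.7, 11.96, 11.98 and 11.7% in SPEN-ISC, WT-ISC, SPEN-EB and WT-EB. Junction, polarity and adhesion genes held 10 bins in 6 genes, among them *arm* E006 (60 bases), a whole exon in the gene of beta-catenin, at 6.32, 6.16, 6.66 and 6.48%. Ion channel and synaptic release genes held 9 bins in 3 genes, with *CaMKII* E018 (60 bases), a whole exon of the calcium- and calmodulin-dependent kinase, at 10 to 84 counts per library. Notch, EGFR, insulin and JAK-STAT signalling genes held 10 bins in 5 genes. *Psn* E004 (30 bases, 5′ UTR), in the gene of presenilin, the protease that cleaves Notch, was used at 7.83, 7.85, 6.71 and 7.98%, and *S6k* E010 (41 bases, a whole exon of the S6 kinase gene) held 0 to 14 counts. Chromatin and transcription regulators held 3 bins in 3 genes, with *Hcf* E005 (39 bases; host cell factor) at 2 to 11 counts per library. These 3 bins were tested in the interaction alone, so the pairwise comparisons say nothing about them.

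Other optional whole exons with many counts lay in genes of membrane proteins, nascent-chain binding and small RNA hosts. *CG10103* E005 (51 bases, coding, in 4 of 6 transcripts), in the gene of the ESCRT-associated protein Ist1, was used at 5.78, 6.07, 6.52 and 5.75% in SPEN-ISC, WT-ISC, SPEN-EB and WT-EB. *path* E007 (51 bases, in 2 of 3 transcripts), in the gene of the amino acid transporter Pathetic, was used at 4.99, 4.15, 4.35 and 4.90%. *Nacalpha* E003 (41 bases, 5′ UTR, in 1 of 3 transcripts), in the gene of a subunit of the nascent polypeptide-associated complex, was a minor exon at 0.195, 0.218, 0.154 and 0.184%. *Uhg5* E008 (60 bases, in 3 of 4 transcripts) was used at 11.2, 10.3, 9.14 and 8.98%. All had a limma adjusted p of 0.940 or above for SPEN against WT in both cell types.

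Among the genes whose exon usage the study discussed, *RpL19*, *RpS21*, *RpL17* and *RpS7* held short internal bins, and *nito*, *spen*, *mRpL16*, *RpL3*, *Ubi-p63E*, *PGRP-LB* and *Dl* held none. *RpL19* E003 (37 bases), across the start of the coding sequence of a large-subunit protein gene, was used at 17.9, 16.7 and 16.8% in SPEN-ISC, against 18.7, 19.1 and 17.4% in WT-ISC, and at 18.7, 16.1 and 15.2% in SPEN-EB, against 19.4 and 19.4% in WT-EB. The log2 ratios were -0.12 ± 0.05 and -0.27 ± 0.09 (SE; limma, adjusted p = 1.00 and 0.770), and the ISC groups overlapped. *RpS21* E002 (59 bases, whole exon) was used at 35.7, 36.5, 35.7 and 36.9% in SPEN-ISC, WT-ISC, SPEN-EB and WT-EB, and *RpS21* E005 (42 bases) at 0.727, 0.844, 0.677 and 0.790%, with log2 ratios of -0.21 ± 0.09 in ISCs and -0.22 ± 0.09 in EBs (adjusted p = 1.00 and 0.862). The 4 short bins of *RpL17*, of 13 to 37 bases in its 5′ UTR, took 0.278 to 0.849% each and had log2 ratios between -0.18 and 0.12.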

How the data were processed

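RNA of sorted ISCs and EBs was sequenced in 11 libraries. According to the study RNA was selected with oligo-dT, whereas the labels name a ribosomal RNA depletion kit. The authors aligned the reads to release r5.54 with TopHat2 2.0.6 and assigned them to exon bins of the BDGP5 annotation; the deposited exon table holds raw counts and the deposited gene table FPKM. Bin positions and transcript lists came from the authors' exon usage table of SPEN-EB and WT-EB. Not used were the authors' fold changes and p-values, 16 repeated count columns and 8 columns of means.

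Usage was tested with limma 3.58.1 (R 4.3.3) on the log2 ratio of bin counts to the remaining gene counts, with an offset of 0.5 and precision weights, over all bins with 15 or more counts in total and 10 or more in enough libraries to fill the smaller group. P-values were adjusted over all tested bins by the Benjamini-Hochberg method. Pairwise comparisons used only their own libraries, and the interaction all 11. Alternatives used edgeR 4.0.16, DESeq2 1.42.0, diffSplice, another offset, filter, denominator or set of libraries. The labels do not say that replicates came from separate dissections, so the p-values measure only the spread between libraries. The WT-EB spread rests on the 2 libraries that the authors kept because they grouped together. Replicate numbers were not taken as pairs, since only 4 of 15 same-numbered pairs of libraries had a correlation of their deviations over 0.1. Whether ISC and EB libraries of the same number came from the same guts is not stated. Between libraries of different numbers the correlation ran from -0.58 (WT-ISC replicate 1 with SPEN-ISC replicate 3) to 0.59 (SPEN-ISC replicate 3 with SPEN-EB replicate 1). The p-values do not account for such shared deviations. Intervals cover counting error only.

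Bins were placed in UTRs or coding sequence through 17378 of 19597 transcripts whose internal exon lengths were equal in release 6, and gene names came from the reference for 868 of the 914 genes. No sequence is shown, since a genome of the r5.54 release was not used here. Members and gene lists were chosen with earlier results of these data known. The bins named are, per comparison, those called and the 3 with the smallest p where fewer were called, those in genes whose exon usage the study discussed, the most abundant bin and whole exon of each gene list, and the 5 most abundant optional whole exons. Other bins were named after their values were seen.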

Additional observations from a re-analysis of the deposited data

Results flagged for a closer look

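In 6 short internal bins the SPEN and WT libraries did not overlap in either cell type and the sign was opposite in ISCs and EBs, which 0.545% of all bins tested in both cell types also showed. None was called in the test of the difference between the cell types (limma, adjusted p = 1.00 each). The log2 difference, EB change less ISC change, was -1.31 for *CG7971* E011 (57 bases), in the gene of a homologue of the splicing factor SRRM2, -1.22 for *CG13384* E002 (23 bases) and -1.18 for *CG18659* E017 (18 bases). It was -0.59 for *skap* E002 (10 bases), in the gene of a subunit of succinyl-CoA synthetase, -0.58 for *PpD3* E004 (48 bases), in that of a protein phosphatase, and 0.77 for *RhoBTB* E013 (21 bases). *CG7971* E011 was used at 4.65, 4.81 and 4.87% in SPEN-ISC, against 0, 4.12 and 4.61% in WT-ISC, and at 4.54, 3.01 and 4.40% in SPEN-EB, against 8.0 and 8.40% in WT-EB, from 0 to 58 counts per library. *CG18659* E017 was used at 4.65, 4.32 and 3.67% in SPEN-ISC, against 3.19, 2.80 and 2.85% in WT-ISC, and at 3.18, 3.05 and 3.10% in SPEN-EB, against 4.07 and 5.28% in WT-EB. *skap* E002, with 53 to 154 counts per library, was used at 2.85% in SPEN-ISC, against 2.33% in WT-ISC, and at 2.38% in SPEN-EB, against 2.96% in WT-EB.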

How the results depend on the processing

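SPEN-ISC against WT-ISC gave 1 short bin called, and SPEN-EB against WT-EB 2 and WT-ISC against WT-EB 1. In that order the counts were 0, 12 and 7 with the replicate block, 0, 0 and 0 without precision weights, 2, 1 and 0 with an offset of 2, 4, 4 and 2 with the neighbour bins as denominator, 3, 1 and 0 with all 11 libraries in the fit, 3, 7 and 0 with the 3′ to 5′ coverage as a covariate, and 4, 4 and 6 by DESeq2. edgeR gave 1 in ISCs, *RFeSP* E003 (lower, adjusted p = 0.00794) and not *CG30283* E003 (0.0832), 1 in EBs and 0 in WT-ISC against WT-EB. diffSplice gave 0 in ISCs, 0 in EBs and 1 in WT-ISC against WT-EB, a bin higher in WT-ISC and so not *dUTPase* E002. Without the count filter 3 were called in ISCs, beside 18 of all 48458 bins. Over all bins (28992, 26479 and 27616), 6, 356 and 79 were called with the replicate block and 0, 0 and 0 without weights. The offset of 2 gave 11, 19 and 3, all 11 libraries 22, 18 and 0, and the coverage covariate 21, 185 and 3. DESeq2 gave 37, 66 and 57, edgeR 7, 16 and 3, and diffSplice 2, 1 and 3 over all bins. With the neighbour bins it was 20, 24 and 20. For the short bins the ranges without 1 library were 0 to 2 in ISCs (2 without SPEN-ISC replicate 3, 0 without any other), 0 to 13 in EBs (13 without SPEN-EB replicate 1, 1 without WT-EB replicate 1, 0 without WT-EB replicate 3 or SPEN-EB replicate 2) and 0 to 11 in WT-ISC against WT-EB (11 without WT-ISC replicate 1, 0 without WT-ISC replicate 3). The 13 were of 807 short bins tested, beside 162 of all 23506 bins, and the 11 were of 971, beside 266 of all 27246. SPEN-ISC against SPEN-EB and the interaction gave 0 short bins under all of these. The cause of these changes was not tested. No bin named for its p in a comparison changed the sign of its ratio there, but with the neighbour bins as denominator the log2 ratio of *RpL15* E005 was 0.00029 in place of 0.61, that of *cl* E003 0.0046 in place of 0.51, that of *dUTPase* E002 -0.35 in place of -0.69, that of *dUTPase* E003 -0.15 in place of -0.35 and that of *Mmp1* E013 -0.67 in place of -1.84. The limma, edgeR or DESeq2 adjusted p of single bins ranged from 2.0e-05 to 1 for *CG30283* E003 in ISCs (under 0.05 in 7 of 16 alternatives), from 2.0e-21 to 0.176 for *RFeSP* E003 in EBs (9 of 15) and from 3.0e-08 to 0.440 in ISCs (7 of 16), from 6.3e-05 to 1.00 for *RpS7* E003 in EBs (7 of 15) and from 0.00022 to 1.00 for *dUTPase* E002 in WT-ISC against WT-EB (4 of 15). The median usage, 3.41% over libraries, was 6.46% for bins with 10 or more counts in all 11 libraries and 21.4% as a share of the bin and its 2 neighbours. Widths of 10 to 30 bases would leave 496 bins. At most bins the depth was low, with 10 or more counts in all 11 libraries at only 580 of the 1358, and its part in the number of calls was not tested.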

Other observations

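The following bins were named after their values were seen and have values only. The short exon of *CG13565*, the gene of the neuropeptide precursor Orcokinin of enteroendocrine cells, kept its usage across a wide range of gene levels. E004 (46 bases, a coding whole exon in both transcripts) held 8152, 15023 and 26439 counts in SPEN-ISC and 49223, 24683 and 19790 in WT-ISC libraries, against 71, 23 and 17 in SPEN-EB and 50 and 86 in WT-EB libraries. Its usage was 25.3 ± 0.251% in SPEN-ISC and 25.6 ± 0.331% in WT-ISC (SD, n = 3 each), against 26.8 ± 2.92% in SPEN-EB (n = 3) and 27.6 ± 2.27% in WT-EB (n = 2). *Acyp2* E002 (17 bases, a coding whole exon in the single transcript of an acylphosphatase gene) varied within each group in place of between them, with 6.87, 15.8 and 8.12% in SPEN-ISC, against 4.85, 17.5 and 17.2% in WT-ISC, and 6.59, 6.38 and 18.9% in SPEN-EB, against 17.7 and 4.44% in WT-EB.

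Counts in short exons of *unc-104*, the kinesin gene, came almost only from SPEN libraries. E030 (54 bases, 5′ UTR, in 5 of 7 transcripts) held 16, 4 and 134 counts in SPEN-ISC, against 0, 2 and 0 in WT-ISC, and 405, 83 and 101 in SPEN-EB, against 0 and 0 in WT-EB libraries. E006 (27 bases, coding) held 7, 1 and 94 in SPEN-ISC, against 0, 1 and 0 in WT-ISC, and 146, 15 and 58 in SPEN-EB, against 0 and 0 in WT-EB. The gene had 3.72, 1.56 and 33.0 FPKM in SPEN-ISC, against 0.0862, 1.28 and 0.365 in WT-ISC, and 70.9, 6.44 and 27.7 in SPEN-EB, against 0.137 and 0.0953 in WT-EB. The gene as a whole was thus also higher in the SPEN libraries. E030 was used at 1.94, 1.38 and 1.81% of gene counts in SPEN-ISC libraries. In SPEN-EB libraries it held 2.49, 6.26 and 1.68%, with replicate 2 (83 counts) apart from the others. The part of the gene level in these values was not tested.

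Usage varied widely between libraries at some 5′ UTR bins, with no call. *Argk* E005 (39 bases, a whole exon in 1 of 6 transcripts of the arginine kinase gene) was used at 9.49, 11.1 and 9.16% in SPEN-EB, against 0 and 5.38% in WT-EB, and at 8.48, 9.08 and 11.6% in SPEN-ISC, against 9.30, 10.2 and 11.3% in WT-ISC (log2 ratio in EBs 1.40 ± 0.72 SE, limma adjusted p = 0.914). The WT-EB values rest on 0 and 7 counts, and the gene as a whole averaged 1056 bin counts in SPEN-EB, against 121.5 in WT-EB libraries. *Hsc70Cb* E002 (25 bases), in the gene of an Hsp110-family chaperone, was used at 2.03, 1.71 and 1.75% in SPEN-EB, against 0.193 and 0.385% in WT-EB, and at 1.65, 1.31 and 1.63% in SPEN-ISC, against 1.86, 2.06 and 0.131% in WT-ISC, so WT-ISC replicate 3 was below both WT-EB libraries (log2 ratio in EBs 2.50 ± 0.65 SE, adjusted p = 0.434). *AGO1* E012 (49 bases), a 5′ UTR exon in 1 of 4 transcripts of an Argonaute gene, took 14.8 to 59.3% of gene counts in SPEN-ISC, against 30.2 to 78.6% in WT-ISC, and 18.8 to 69.8% in SPEN-EB, against 72.4 and 77.1% in WT-EB. The gene as a whole had 0.172 to 1.503 FPKM in the 11 libraries.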
